A study of Mus musculus with 4 samples.

Results

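The natriuretic peptide genes Nppa (NM_008725), Nppb (NM_008726) and Nppc (NM_010933) and the receptor genes Npr1 (NM_008727) and Npr3 (NM_008728) were followed through the differentiation of mouse pluripotent stem cells into cardiomyocytes. These 5 genes were chosen by their RefSeq identifiers, which were matched to the array features, out of 20885 genes that the arrays represent by symbol. Of the 5 genes, 3 (Nppa, Nppb and Npr3) gave a signal well above background in at least 1 cell population, and 2 (Nppc and Npr1) gave none in any.

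RNA of 4 sorted cell populations was hybridised with Cy3 dye to 1-colour Agilent arrays, 1 array for each population, without replicates. Flk1+ MPCs are mesodermal precursor cells with the surface receptor Flk1, sorted at day 4.5 after withdrawal of LIF, the factor that keeps the stem cells undifferentiated. PCBs, cardioblasts with PDGFRα and without Flk1, were taken at day 5.5 from Flk1+ MPCs exposed to CsAYTE, a mixture of 4 small molecules, namely Cyclosporin A, EW7197 (which inhibits ALK5), Y27632 (which inhibits ROCK) and Trolox, an antioxidant. The sfPCBs arose spontaneously by day 5.5 in the absence of CsAYTE, and M+CMs are cells positive for αMHC at day 10.5. All populations share an origin in mouse embryonic stem cells, and the labels do not say which line gave each array or whether the M+CMs had received CsAYTE. In the study, the αMHC signal came from a GFP gene driven by the αMHC (Myh6) promoter. The sorted Flk1+ MPCs were cultured further on OP9 stromal feeder cells or on gelatin. The labels do not say which was used for an array. The paper reports that PCBs did not arise without feeder cells, and it describes M+CMs as derived from PCBs. Because nothing was replicated, populations could not be tested against each other, and the error given beside each signal is the one that the scanning software estimated for the spot and its background.

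Natriuretic peptides are hormones of the heart and vessels. Nppa encodes atrial natriuretic peptide and Nppb encodes B-type natriuretic peptide, both made by cardiac muscle cells and used as signs of cardiac muscle development and of strain on the heart wall, whereas Nppc encodes C-type natriuretic peptide, best known from endothelium and growing bone. Npr1 is the receptor for the atrial and B-type peptides and makes cyclic GMP inside the cell, and Npr3 takes peptides up for clearance and has no cyclase of its own.

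Nppa and Nppb lie next to each other on mouse chromosome 4, and the 250 bases before the start of each gene are shown here because both genes were detected in all 4 populations with different profiles. The sequences are from RefSeq (build GRCm38.p6, plus strand), at chr4:148000472-148000721 for Nppa and chr4:147985650-147985899 for Nppb. Capitals mark matches, read on both strands, to motifs of factors known from cardiac muscle genes.
Nppa: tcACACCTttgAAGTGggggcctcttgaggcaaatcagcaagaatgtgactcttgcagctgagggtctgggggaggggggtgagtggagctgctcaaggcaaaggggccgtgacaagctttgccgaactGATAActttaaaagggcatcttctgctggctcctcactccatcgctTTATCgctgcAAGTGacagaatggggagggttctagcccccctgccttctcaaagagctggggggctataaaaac
Nppb: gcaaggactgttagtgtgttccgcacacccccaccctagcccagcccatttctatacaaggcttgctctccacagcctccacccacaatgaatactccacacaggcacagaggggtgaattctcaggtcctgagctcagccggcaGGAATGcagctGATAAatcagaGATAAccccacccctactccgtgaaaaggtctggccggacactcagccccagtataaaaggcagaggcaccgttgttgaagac
The letters GATAA, the core bound by GATA factors, occurred at bases 121 to 117 and 75 to 71 before the Nppa start, and at bases 94 to 90 and 83 to 79 before the Nppb start. The Nppa window also held AAGTG, the core of the Nkx2-5 element, at bases 239 to 235 and 65 to 61, and the T-box letters AGGTGT at bases 248 to 243. The Nppb window held CATTCC, the M-CAT element of TEAD factors, at bases 105 to 100. Matches to the MEF2 and CArG motifs were present in neither window, and the windows of Nppc, Npr1 and Npr3 held none of the 6 motifs. Such letters are common. Of 32851 promoter windows of this length, 22.6% held GATAA, 40.7% held AAGTG, 12.6% held CATTCC, 11.8% held AGGTGT, 2.92% held a MEF2 motif and 1.47% held a CArG motif. No motif searched overlapped another at these positions, and a match describes the sequence and not a site of binding.

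Levels are given as scaled signals, which are the background-subtracted signals after each array was brought to a common 75th percentile. A scaled signal can be compared between populations for 1 gene, but not between genes, because each probe binds its target differently. The lowest signal called well above background was 15.94 (Flk1+ MPCs), 15.14 (sfPCBs), 15.55 (PCBs) and 15.32 (M+CMs), and this is used as the detection floor. In bulk RNA, fewer cells of a type and less RNA per cell cannot be told apart.

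Nppa was lowest in Flk1+ MPCs and highest in M+CMs. Its scaled signal was 59.19 ± 6.87 (Flk1+ MPCs), 79.6 ± 8.79 (sfPCBs), 182.1 ± 18.5 (PCBs) and 494.8 ± 49.6 (M+CMs). All 4 signals were well above background, from 3.71 times the floor in Flk1+ MPCs to 32.3 times in M+CMs. M+CMs exceeded PCBs by 2.72-fold (log2 difference 1.44 ± 0.21), and PCBs exceeded sfPCBs by 2.29-fold (1.19 ± 0.22). The remaining step, sfPCBs over Flk1+ MPCs, was 1.34-fold (0.43 ± 0.23), within 2 errors, so these neighbours in the order were not told apart.

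The Nppa probe was printed 10 times on each array, and 10, 10, 8 and 8 of its spots passed the quality flags in Flk1+ MPCs, sfPCBs, PCBs and M+CMs. The spots ranged from 50.32 to 69.38 (median 59.76) in Flk1+ MPCs and from 70.97 to 92.02 (median 79.79) in sfPCBs. In PCBs they ranged from 170.4 to 190.6 (median 181.4), and in M+CMs from 479.7 to 519.3 (median 491.7). The 4 ranges did not overlap. The SD between spots lay between 0.03 and 0.15 on the log2 scale, and it covers printing and scanning on 1 array, not the spread between cultures.

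**Figure D1:**
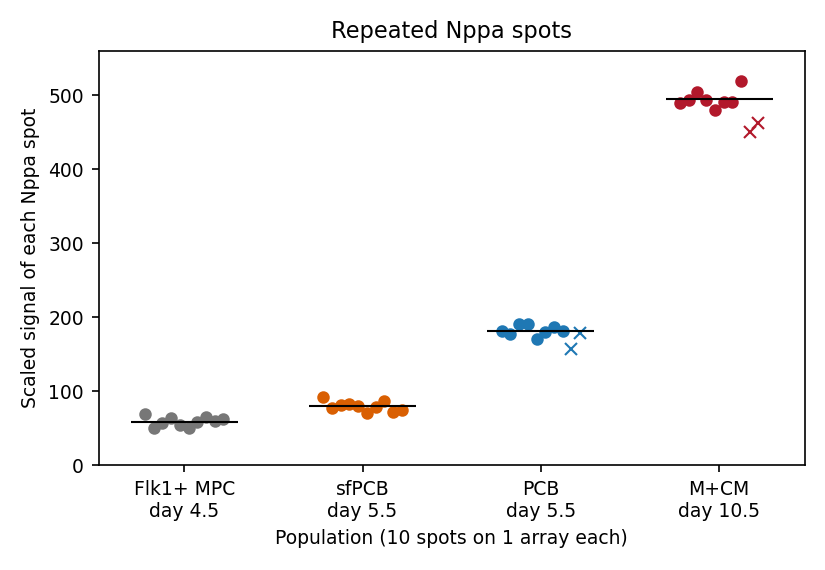
Scaled signal (linear axis) of each of the 10 Nppa spots on the array of each population. Filled points were used, crosses are spots with a quality flag, and the black line is the mean (on the log2 scale) of the used spots. The used spots of M+CMs lie between 479.7 and 519.3 and the flagged ones at 450.9 and 462.7, all above the spots of the other populations.

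Nppb had another order. Its scaled signal, from 1 spot per array, was 43.1 ± 5.88 (Flk1+ MPCs), 248.4 ± 25.2 (sfPCBs), 109.3 ± 11.7 (PCBs) and 183.1 ± 18.7 (M+CMs). The highest signal was in sfPCBs, which arose without CsAYTE, and the lowest in Flk1+ MPCs, which were sorted before any CsAYTE was added. The sfPCB signal exceeded that of M+CMs by 1.36-fold (log2 difference 0.44 ± 0.21), M+CMs exceeded PCBs by 1.67-fold (0.74 ± 0.21), and PCBs exceeded Flk1+ MPCs by 2.54-fold (1.34 ± 0.25). Each step was larger than 2 errors, the first only just.

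Npr3, the clearance receptor, separated Flk1+ MPCs from the later populations. Its scaled signal was 16.98 ± 4.05 (Flk1+ MPCs, not well above background), 60.87 ± 7.38 (sfPCBs), 62.17 ± 7.18 (PCBs) and 90.96 ± 9.76 (M+CMs). Relative to Flk1+ MPCs it was 3.58-fold higher in sfPCBs, 3.66-fold higher in PCBs and 5.36-fold higher in M+CMs. These ratios are uncertain, with errors of 0.38 to 0.39 on the log2 scale. The Flk1+ MPC signal lay at 1.07 times the floor. The signals of sfPCBs and PCBs were within 2 errors of each other (1.02-fold, log2 difference 0.03 ± 0.24), and M+CMs exceeded PCBs by 1.46-fold (0.55 ± 0.23). Without scaling of the arrays the order of sfPCBs and PCBs turned, with a log2 ratio of -0.12 for PCBs over sfPCBs.

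Nppc and Npr1 were not well above background in any population. The scaled signal of Nppc was 11.08 ± 3.6 (Flk1+ MPCs), 4.115 ± 4.12 (sfPCBs), 3.462 ± 3.42 (PCBs) and 14.09 ± 3.59 (M+CMs). That of Npr1 was 13.51 ± 3.91 (Flk1+ MPCs), 3.347 ± 3.34 (sfPCBs), 3.545 ± 3.53 (PCBs) and 3.504 ± 3.49 (M+CMs). All 8 signals lay under the floor of their array, so no ratio is given for these genes, and each was represented by 1 probe.

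**Figure D2:**
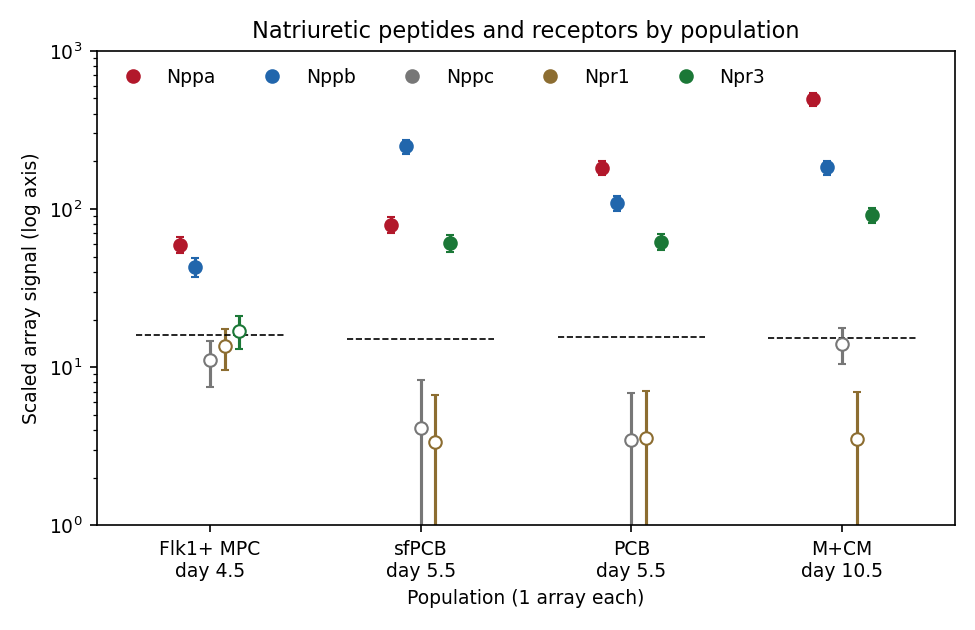
Scaled array signal (log axis) of the 5 genes in the 4 populations, with bars for the error estimated by the software (cut off at the lower edge of the axis). Filled points are well above background, open points are not, and dashed lines are the detection floor of each array. Nppa is highest in M+CMs (494.8), Nppb in sfPCBs (248.4), and all points of Nppc and Npr1 are open. Heights are comparable between populations for 1 gene, not between genes.

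The comparisons between populations asked which genes differed by at least 4-fold, among probes detected in at least 1 of the arrays compared. They share arrays, so the 3 comparisons against Flk1+ MPCs, for example, all rest on the same array. The first was that of the CsAYTE-induced cells with their precursors. In PCBs against Flk1+ MPCs none of the 3 detected genes was counted past 4-fold, where 5.46% of all probes compared passed it upward in PCBs and 2.92% downward. Nppa was 3.08-fold higher in PCBs (log2 ratio 1.62 ± 0.22), Nppb 2.54-fold higher and Npr3 3.66-fold higher (1.87 ± 0.38). Its error leaves undecided whether Npr3 passed 4-fold, and its log2 ratio without scaling was 2.06. All 3 lay above the median of all probes compared, which was -0.19 on the log2 scale. Npr3 entered only through its detection in PCBs.

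The comparison of both day 5.5 populations set cells with CsAYTE against cells without it. With 1 array each, CsAYTE cannot be told apart from differences in cell make-up or culture. Between PCBs and sfPCBs no member differed by 4-fold, and few probes did so, with 1.43% higher in PCBs and 1.86% lower. Nppa was 2.29-fold higher in PCBs and Nppb was 2.27-fold higher in sfPCBs (log2 ratio of PCBs over sfPCBs -1.18 ± 0.21), so the neighbouring peptide genes differed in opposite directions, each by more than 5 errors. Npr3 was at the same level within its error.

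The sfPCBs against Flk1+ MPCs had 1 member past 4-fold, Nppb, which was 5.76-fold higher (log2 ratio 2.53 ± 0.25). Of all probes compared, 5.63% were at least 4-fold higher in sfPCBs and 2.21% lower, so 71.9% of the probes past 4-fold were higher in sfPCBs, against 82.9% without scaling. Nppa, at 1.34-fold, was under the threshold. For Npr3 the error of the ratio of 3.58-fold (log2 ratio 1.84 ± 0.39) leaves undecided whether 4-fold was passed. Without scaling its log2 ratio was 2.18, past 4-fold.

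In M+CMs against Flk1+ MPCs all 3 detected members passed 4-fold, each with the higher signal in M+CMs. Nppa was 8.36-fold higher (log2 ratio 3.06 ± 0.22), Nppb 4.25-fold higher (2.09 ± 0.25) and Npr3 5.36-fold higher (2.42 ± 0.38). The ratios of Nppb and Npr3 were near the threshold relative to their error. With an offset of 50 on the signals they were 1.32 and 1.07 on the log2 scale, both under 4-fold, and with quantile normalization Nppb was at 1.88. This comparison had the most probes past 4-fold of the 6, with 9.39% higher in M+CMs and 7.38% lower. The median log2 ratio over all probes compared was -0.01. Npr3 entered this comparison only through its detection in M+CMs.

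From PCBs to M+CMs no member passed 4-fold, where 6.15% of probes passed it with the higher signal in M+CMs and 5.85% with the lower. Nppa was 2.72-fold, Nppb 1.67-fold and Npr3 1.46-fold higher in M+CMs. Against sfPCBs, M+CMs had 6.22-fold more Nppa signal (log2 ratio 2.64 ± 0.22), the only member past 4-fold there, with 7.65% of probes higher and 7.67% lower. The higher share of those past 4-fold was 49.9%, against 36.0% without scaling. Nppb was lower in M+CMs than in sfPCBs (log2 ratio -0.44 ± 0.21) and Npr3 was 1.49-fold higher.

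**Figure D3:**
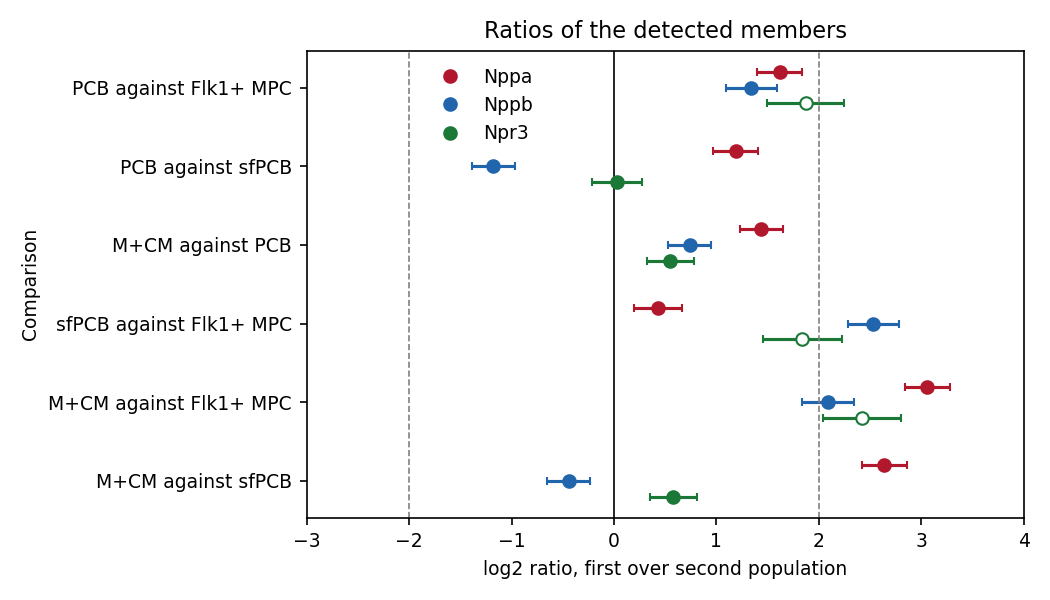
Log2 ratio of scaled signals of Nppa, Nppb and Npr3 in the 6 comparisons, with the first population named over the second. Bars are the errors of the ratios from the software's signal errors, open points are ratios against a signal not well above background, and dashed lines mark 4-fold. Nppb lies on the left of 0 in both comparisons with sfPCBs as the second population (-1.18 and -0.44).

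The label of each population was set against marker genes. Of 10 cardiomyocyte markers, 9, 8, 10 and 10 were detected in Flk1+ MPCs, sfPCBs, PCBs and M+CMs, with summed signals of 12090, 10050, 802200 and 2373000. The sums, which the brightest genes carry, were far higher in PCBs and M+CMs than in sfPCBs and Flk1+ MPCs. Single markers differed between the last 2, since sfPCBs had 21.1-fold more Tnnt2 (cardiac troponin T) and 10.4-fold less Myl7 (an atrial light chain) than Flk1+ MPCs. Myh6, the αMHC gene that drives the sorting reporter, read 116.3, 128.0, 82860 and 478600 in that order. The order of the populations was the same for Nppa, but not for Nppb. Of 5 mesodermal markers, 5, 5, 2 and 2 were detected in Flk1+ MPCs, sfPCBs, PCBs and M+CMs. Mesp1, T and Mixl1 were detected in Flk1+ MPCs and sfPCBs and not in PCBs or M+CMs. In sfPCBs they were 236-fold, 79.9-fold and 149-fold lower than in Flk1+ MPCs. Eomes read 41050, 4554, 37.78 and 27.64 by its brighter probe. Pdgfra, which was used to sort PCBs, read 7237, 3647, 9136 and 918.3, and both probes of Kdr, the Flk1 gene, were highest in Flk1+ MPCs.

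The summed stromal and endothelial markers were highest in sfPCBs, as Nppb was, but neither sum ranked the other populations as Nppb did. The summed blood and endocardial markers were highest in sfPCBs too, but single genes carried these sums. In blood, Hbb-bh1 read 2781 in sfPCBs and 2525 in PCBs, within 2 errors. Itga2b and Gata1 were highest in sfPCBs, Hba-x in PCBs (465.3) and Tal1 in Flk1+ MPCs (612.1). In the endocardial list, Plvap was highest in sfPCBs (2439), Nfatc1 by its brighter probe in Flk1+ MPCs (829.9) and Npr3 in M+CMs. Of 7 stromal or feeder-cell markers, 4, 7, 6 and 7 were detected in the same order, with summed signals of 3006, 274600, 141100 and 22130. Lum, a collagen-binding proteoglycan, read 3.351 (not detected), 8782, 30.2 and 103.8, and Postn, a matrix protein of fibroblasts, read 12880 in sfPCBs and was not detected in PCBs or Flk1+ MPCs. Thy1, a surface protein on the same list, went the other way, with 1065 in Flk1+ MPCs and 102.4 in sfPCBs. Of 6 endothelial markers, 4, 5, 3 and 2 were detected, with summed signals of 339.8, 3505, 261.9 and 441.2. Cdh5, the junction cadherin of endothelium, read 986.6 in sfPCBs and 36.18 in Flk1+ MPCs and was not detected in PCBs or M+CMs. Tek, Tie1 and Cldn5 were highest in sfPCBs too, and Emcn was not detected in any population. Pecam1 read 412.1 in sfPCBs and 372.6 in M+CMs, within 2 errors, and made up most of the M+CM sum. The part of these cells in the Nppb signal was not tested.

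Other marker lists covered muscle and blood. The summed signals of 4 smooth muscle markers were 22590, 185700, 251200 and 410400 in Flk1+ MPCs, sfPCBs, PCBs and M+CMs, with 4, 3, 4 and 4 detected. For 4 atrial-type markers the sums were 13740, 8979, 365200 and 962600, with 3, 3, 4 and 4 detected. For 4 ventricular-type markers they were 510.8, 619.5, 72270 and 512100, with 4, 3, 4 and 4 detected. Both sums were highest in M+CMs, as Nppa was, but Hey2, a ventricular transcription factor, was highest in sfPCBs, at 443.8 against 178.7 in M+CMs. Of 5 blood markers 4, 5, 5 and 3 were detected, with sums of 879.7, 3877, 3128 and 206. The endocardial list of 3 genes, which holds Npr3 itself, summed to 1497, 3122, 587.2 and 686, so its other genes Nfatc1 and Plvap did not follow the Npr3 order. Their part in the results was not tested either.

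Genes that make, receive and break down the signal were followed with a list of 16, of which 15 were detected in at least 1 array. Npr2, the cyclase receptor for C-type peptide, was detected in all populations, at 2271 (Flk1+ MPCs), 3283 (sfPCBs), 2999 (PCBs) and 5343 (M+CMs). Npr1, the other cyclase receptor, was not, and for Npr2 M+CMs exceeded Flk1+ MPCs by 2.35-fold. Ostn, a peptide ligand of Npr3, was not well above background in any population.

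The enzymes that cut the peptide precursors were highest in M+CMs, in the same order as Nppa. Corin, the cell-surface protease that activates the atrial peptide, read 10.39 (Flk1+ MPCs, not detected), 39.07 (sfPCBs), 68.4 (PCBs) and 1160 (M+CMs). M+CMs exceeded PCBs by 17.0-fold and Flk1+ MPCs by at least 72.8-fold. Furin, a general precursor protease that cuts the B-type precursor among others, read 2359, 4619, 8063 and 31500 in the same order, which put M+CMs 13.4-fold above Flk1+ MPCs.

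The enzymes that degrade peptides were not alike. Mme (neprilysin) read 134.0 (Flk1+ MPCs), 451.1 (sfPCBs), 521.4 (PCBs) and 147.3 (M+CMs), and Ece1, the endothelin-converting enzyme, read 213.0, 1039, 964.4 and 222.5. Both were higher at day 5.5 than before or after, and Ece1 passed 4-fold against Flk1+ MPCs in sfPCBs (4.88-fold) and in PCBs (4.53-fold). Ide, the insulin-degrading enzyme, read 1124, 1461, 1611 and 2836. The Mme values are those of its brighter probe, and the other probe read 114.0, 340.3, 332.4 and 80.94.

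Cyclic GMP is sensed by kinases and removed by phosphodiesterases. Prkg1, cGMP-dependent kinase I, read 87.6 (Flk1+ MPCs), 428.6 (sfPCBs), 1052 (PCBs) and 893.3 (M+CMs), and PCBs exceeded Flk1+ MPCs by 12.0-fold. Prkg2, the second such kinase, read 100.5, 1842, 286.9 and 95.3. It peaked in sfPCBs, as Nppb did, and was the only gene of the list with a 4-fold difference between PCBs and sfPCBs (log2 ratio -2.68).

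Among the phosphodiesterases, Pde5a, which is selective for cGMP, was highest in M+CMs, at 3478 against 825.2 in Flk1+ MPCs (4.21-fold). Pde2a, which cGMP stimulates, read 1381, 3856, 1883 and 710.4, and Pde9a, which binds cGMP with high affinity, read 80.37, 219.3, 96.31 and 131.4, both with their maximum in sfPCBs. Pde3a, which cGMP inhibits, read 148.8, 131.7, 145.2 and 213.5 by its brighter probe, and its other probe gave a larger ratio of M+CMs over Flk1+ MPCs (4.62-fold against 1.43-fold).

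The subunits of soluble guanylyl cyclase, which makes cGMP in response to nitric oxide, included genes with large ratios. Gucy1a1 read 16.95 (Flk1+ MPCs, not detected), 939.1 (sfPCBs), 1200 (PCBs) and 11510 (M+CMs). The ratio of M+CMs over Flk1+ MPCs was 679-fold, against a signal not well above background, with an error of 0.35 on the log2 scale. Gucy1b1, its partner subunit, read 115.4, 7670, 2458 and 10760, a ratio of 93.2-fold for M+CMs over Flk1+ MPCs. The other alpha subunit, Gucy1a2, read 476.4, 668.8, 373.3 and 247.2.

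Counted over the list, 5 of the 16 genes exceeded their Flk1+ MPC signal by at least 4-fold in PCBs, 5 in sfPCBs and 6 in M+CMs, and none was 4-fold lower. The shares of all probes were 5.46%, 5.63% and 9.39% higher and 2.92%, 2.21% and 7.38% lower. The median log2 ratio of the detected genes was 1.51, 1.45 and 1.23 in these comparisons, beside -0.19, -0.22 and -0.01 over all probes. Corin and Gucy1a1 entered these medians only through their detection in the later population. Between M+CMs and PCBs, 3 were higher and 1 (Ece1) lower, and between M+CMs and sfPCBs 3 were higher and 3 (Ece1, Prkg2 and Pde2a) lower, beside 6.15% and 5.85% of all probes in the former comparison and 7.65% and 7.67% in the latter.

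**Figure D4:**
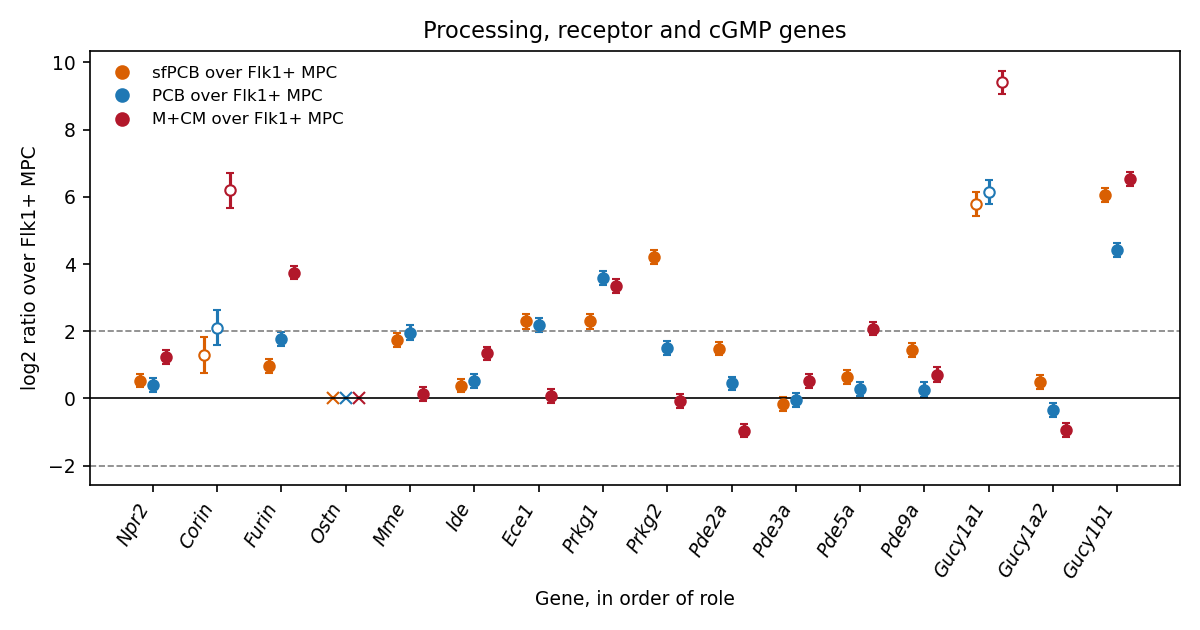
Log2 ratio of the scaled signals over Flk1+ MPCs for the 16 genes of the pathway in order of role, by population. Bars are the errors of the ratios, and open points are ratios against a signal not well above background. Crosses mark a gene not detected in either array, and dashed lines mark 4-fold. In M+CMs Gucy1a1 lies at 9.41 (an open point) and Gucy1b1 at 6.54.

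The genes beside Nppb and Nppa gave a view of the locus. Of 9 other genes considered within 100 kb of the pair, 6 were on the array and all 6 were detected. Of these, only Mfn2, which encodes a mitochondrial fusion protein, passed 4-fold in any comparison. It read 885.2 (Flk1+ MPCs), 1280 (sfPCBs), 1575 (PCBs) and 7233 (M+CMs), which put M+CMs 8.17-fold above Flk1+ MPCs, and its other probes gave 5.33-fold and 7.22-fold. Clcn6, a chloride transporter gene directly beside Nppa, read 236.2, 195.9, 201.0 and 272.6, and 2510039O18Rik, directly beside Nppb, read 5628, 6642, 6106 and 6259. Neither neighbour differed by more than 2 errors between Flk1+ MPCs and any later population.

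Further away, Plod1, a collagen lysyl hydroxylase, read 327.6, 609.6, 613.0 and 381.6. Agtrap, which binds the angiotensin receptor, read 1535, 675.0, 948.8 and 504.4, and Draxin, an axon guidance factor, read 48.4, 25.21, 26.03 and 14.54 (not detected). Agtrap and Draxin had less signal in M+CMs than the precursors did, where Nppa and Nppb were higher. Over the 6 neighbours the median log2 ratio of M+CMs over Flk1+ MPCs was 0.18.

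**Figure D5:**
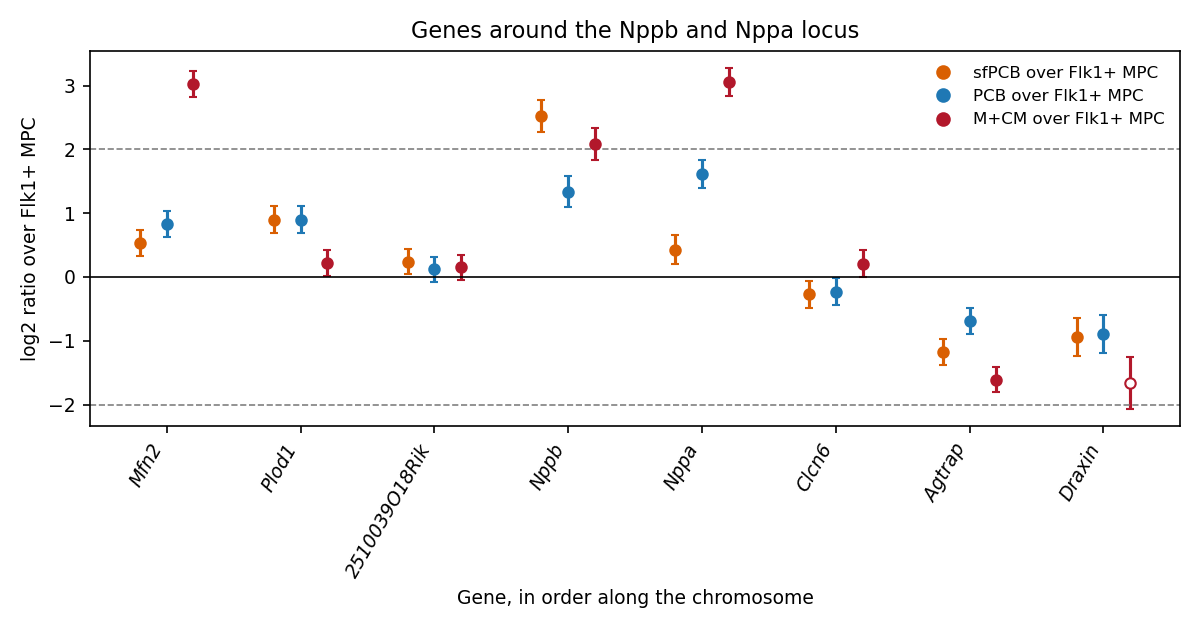
Log2 ratio of the scaled signals over Flk1+ MPCs for Nppb, Nppa and 6 measured genes around them, in chromosome order (distances not drawn). Bars are the errors of the ratios, the open point is a bound, and dashed lines mark 4-fold. Nppb, Nppa and Mfn2 pass 4-fold, and Clcn6 and 2510039O18Rik lie near 0.

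Transcripts with a profile over the 4 populations most like that of each detected member were listed by the root mean square difference of their log2 signals, after each was centred on its own mean. Of 14190 curated RefSeq transcripts detected in all 4 populations, those nearest to Nppa were Shd (0.091), Ccrl2 (0.098), Rassf4 (0.117), Agbl3 (0.139) and Spsb4 (0.144). Shd read 500.5, 764.9, 1483 and 4460. Those nearest to Nppb were Spns2 (0.031), Abcc3 (0.106), Plce1 (0.129), St3gal5 (0.129) and Mbp (0.143). Spns2 read 104.6, 597.6, 273.2 and 464.8, with the same maximum in sfPCBs. For Npr3, 274 transcripts shared its pattern of detection, and the nearest were Irak4 (0.08), Hsd3b6 (0.15), Ifit1bl1 (0.229), Ankrd35 (0.236) and Gm20736 (0.241). In Flk1+ MPCs each of these was set to the detection floor of 15.94, so their likeness to Npr3 there comes from the floor. Each list rests on 4 arrays only.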

How the data were processed

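Total RNA of each population was labelled with Cy3, hybridised to Agilent mouse arrays and scanned, all 4 on 1 slide. Per the file headers, the authors deposited the intensities that Feature Extraction 11.5.1.1 wrote for every spot, with a background-subtracted processed signal, its error and quality flags, and no scaling between arrays. The deposited series matrix holds log2 values of the same signals, unscaled and equal within 0.001 for at least 99.7% of probes. The array design is annotated on build mm9 in the headers, but the spots carry identifiers only. Symbols came from the RefSeq table of GRCm38.p6, which matched 27507 of 29148 features with RefSeq identifiers.

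Flagged spots (87 to 144 of 43020 per array) were left out, and none was saturated. All arrays were brought to a 75th percentile of 2198.4 (from 1969.6 to 2536.4), and spots of a probe were averaged as log2 values. Detection required 0.5 or more of a probe's spots to be flagged well above background, which held for 72.9% to 76.0% of the 39428 features. Undetected signals were raised to the lowest detected signal of the array where they were below it. Ratios of at least 4-fold were counted among probes detected in at least 1 array of a comparison. For a gene with several probes the brightest by mean log2 signal was used. The calculation was tested on simulated data, with changes planted in detected probes of higher signal and without the detection floor. Signals near the floor were not covered by it. With 1 array per population, the number of arrays limits the precision, and differences between cultures have no estimate.

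The members and gene lists were chosen with earlier results of these data known. Named were the 5 members, every gene of the pathway and neighbour lists, the 5 most alike transcripts for each detected member, and markers from the lists. A neighbouring gene is not reported here and is left out of the counts. The alternatives were no scaling, a percentile over probes detected on all arrays, quantile normalization, normexp with an offset of 50 together with quantile normalization, an offset of 50 on the scaled signals, detection in both arrays, no detection filter, the series matrix values scaled in the same way, a 30-fold threshold and, chosen after seeing the data, flagged spots kept, no detection floor, and neither filter nor floor. Python 3.11.15, numpy 2.4.6, pandas 2.3.3, matplotlib 3.10.9, and R 4.3.3 with limma 3.58.1 were used.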

Additional observations from a re-analysis of the deposited data

How the results depend on the processing

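No direction of a member was reversed where its ratio exceeded its error. One alternative combined normexp, an offset of 50 and quantile normalization, and is called the combined setting here. The count of members at least 4-fold different was 3 in M+CMs against Flk1+ MPCs. It became 2 with quantile normalization alone, 2 with detection in both arrays, 1 with an offset of 50, 1 in the combined setting and 0 at 30-fold. In sfPCBs against Flk1+ MPCs it was 1, and became 2 without scaling, 2 with neither filter nor floor, and 0 with the offset of 50, in the combined setting or at 30-fold. In M+CMs against sfPCBs it was 1, and became 0 in the combined setting or at 30-fold. In PCBs against Flk1+ MPCs it was 0 and became 1 without scaling, and in M+CMs against PCBs it was 0 and became 1 with neither filter nor floor. The member gained with neither filter nor floor was not well above background in either array (Npr1 in the former, Nppc in the latter). In PCBs against sfPCBs it was 0 under every alternative run. An offset, which the combined setting holds too, draws ratios of low signals towards 0 by its construction. How much of the combined setting's change comes from each of its steps was not tested.

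Of the log2 ratios of members recomputed under an alternative, 161 moved by less than their error and 34 by more. Of the 34, 16 were in the combined setting, 12 with the offset and 6 without scaling. The 161 include the ratios with detection in both arrays (15), no filter (18), no floor (18) and neither (18). These settings could not move a ratio of the detected members, because no signal used lay under its floor, so they say nothing about stability. The series matrix values (18) and flagged spots kept (18) say little more. The former are the same signals scaled in the same way. In the latter Nppb and Npr3, with 1 unflagged spot per array, could change only through the percentile. The order of the populations was kept in 20 of 21 recomputed cases, the exception being Npr3 without scaling. The 20 include 3 with the offset, which cannot change an order. They also include 3 with the series matrix values, which are the same signals scaled in the same way. Leaving out scaling moved the median log2 ratio of all probes by between -0.37 (M+CMs against sfPCBs) and 0.34 (sfPCBs against Flk1+ MPCs). In the combined setting the probes at least 4-fold higher numbered 1849 against 2963 in M+CMs against Flk1+ MPCs and 992 against 1728 in sfPCBs against Flk1+ MPCs. The signal over background limits Nppc, Npr1 and the Npr3 signal in Flk1+ MPCs. No paired analysis was possible because each population has 1 array, and no array could be left out for the same reason.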

Other observations

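For some genes the probes gave different profiles. Kdr, the gene of Flk1, read 54860, 4559, 767.8 and 2126 in Flk1+ MPCs, sfPCBs, PCBs and M+CMs by one probe, and 11260, 6661, 7272 and 7499 by the other. The second probe of Pde3a read 29.28, 21.36 (not detected), 72.83 and 135.3 in the same order, where the brighter probe lay between 131.7 and 213.5. The probes of Nfatc1 were highest in different populations, one in Flk1+ MPCs (829.9) and the other in sfPCBs (307.9). The probes of Myh6 gave 5.78-fold and 58.0-fold for M+CMs over PCBs.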
